A study of Mus musculus with 6 samples.

Results

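The collagen modifying and crosslinking enzymes described here are 10 genes of the 14765 that the read annotations name: the prolyl 4-hydroxylase alpha subunits P4ha1, P4ha2 and P4ha3, the lysyl hydroxylases Plod1, Plod2 and Plod3, the collagen chaperone Serpinh1, and the lysyl oxidases Lox, Loxl1 and Loxl2. Members were chosen by name, and the deposited counts of all reads annotated to a name were summed in each library. The values came from mRNA-seq of Mvt1 cells, a mouse mammary carcinoma line of FVB/N background grown in DMEM with fetal bovine serum. Cells stained for surface CD24 were sorted into CD24- and CD24+ cells, and RNA was taken from 3 plates of adherent cells of each group. Both groups share the line, the strain and the medium. Replicate sorts are not described in the sources used here, so the spread between libraries is that between plates of one sorted group.

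Collagen chains are modified in the endoplasmic reticulum before they leave the cell. Prolyl 4-hydroxylase, a complex of alpha subunits with the P4hb protein, hydroxylates prolines and so makes the triple helix stable at body temperature. Lysyl hydroxylases hydroxylate lysines that later take part in crosslinks or carry sugars, Serpinh1 (also called HSP47) binds the folded triple helix, and secreted lysyl oxidases use copper to oxidize lysines so that fibrils of collagen and elastin become crosslinked. Both hydroxylase families need iron, oxoglutarate and ascorbate. Crosslinking by lysyl oxidases is known to stiffen the matrix of mammary tumors.

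Levels are given as CPM, the counts of a gene per 1000000 reads annotated to genes after TMM scaling of that total, and an adjusted p is from edgeR with Benjamini-Hochberg adjustment over all genes tested, with a threshold of 0.05. Of the 10 members, 8 passed the filter on low counts and were tested with edgeR (quasi-likelihood), and 6 of these were higher in CD24+ cells: Lox, Loxl2, Serpinh1, P4ha2, Plod1 and Plod2. None was lower, at an adjusted or an unadjusted p under 0.05, and DESeq2 also called 0 lower. P4ha1 and Plod3 did not pass the test. Among all 11125 genes tested, 23.8% were higher and 22.3% lower. The median log2 fold-change of the 8 tested members was 1.15, and that of all tested genes was 0.02. The same 6 members had all 3 CD24+ libraries above all 3 CD24- libraries, an order that 29.7% of all tested genes showed, and 0 members had the opposite order, which 27.6% of all tested genes showed. P4ha3 and Loxl1 had 83 and 33 reads in all and did not pass that filter.

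**Figure D1:**
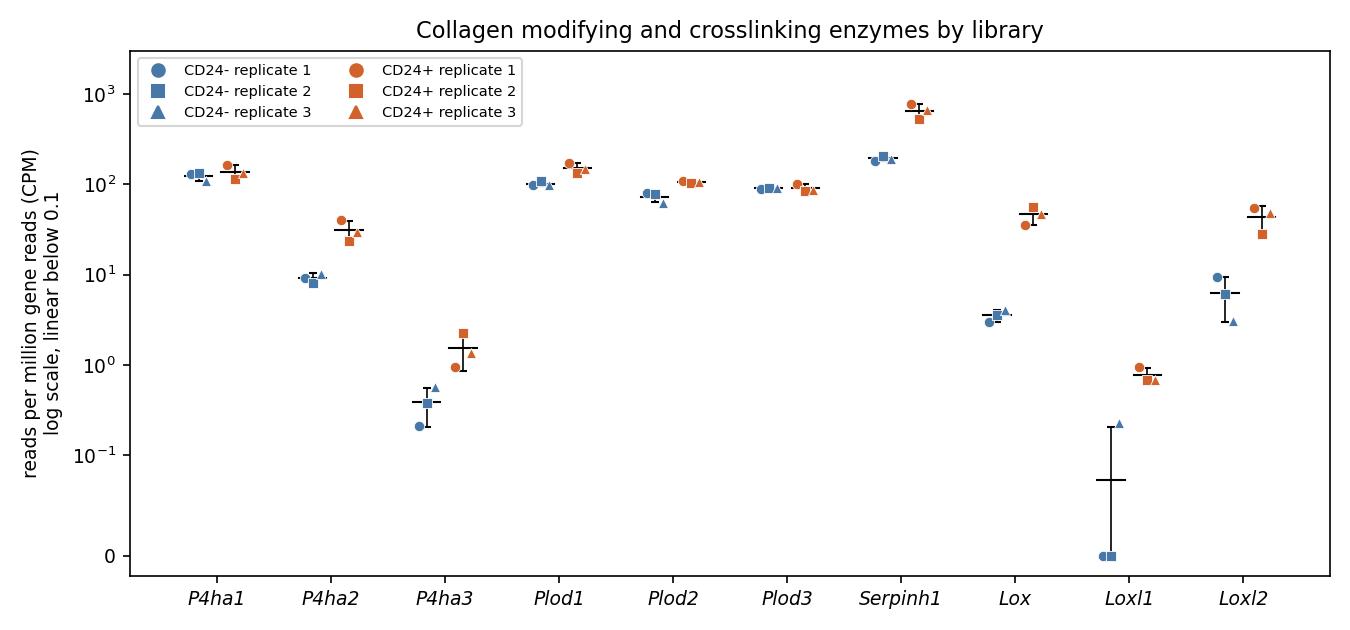
Reads per 1000000 gene reads (CPM, log scale, linear below 0.1) of the 10 members in each library, with blue symbols for CD24- and orange symbols for CD24+ libraries, a line at the mean of 3 libraries and a bar of 1 SD. The CD24+ symbols of Lox, Loxl2, Serpinh1 and P4ha2 lie well above the CD24- symbols, and those of P4ha1 and Plod3 overlap them.

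Sequences are shown for exons that some coding transcripts of a member hold and others lack, and for a pair of promoters of members that rose together. The 63-nt exon of Plod2, on the plus strand of GRCm38 at chr9:92601985-92602047, is in 1 of its 2 complete coding transcripts in GENCODE M21. The longer Plod2 enzyme that holds this exon is known for hydroxylating lysines in the telopeptides, the ends of the collagen chain where crosslinks form.
Plod2 63-nt exon: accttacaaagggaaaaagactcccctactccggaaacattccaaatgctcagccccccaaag
P4ha1 has 2 exons of 71 nt that are used in place of each other, on the plus strand at chr10:59354340-59354410 and chr10:59355350-59355420. The exons are identical at 42 of 71 positions (59.2%), which are in capitals.
P4ha1 first exon: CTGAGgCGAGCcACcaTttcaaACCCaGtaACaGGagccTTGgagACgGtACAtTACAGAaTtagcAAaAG
P4ha1 second exon: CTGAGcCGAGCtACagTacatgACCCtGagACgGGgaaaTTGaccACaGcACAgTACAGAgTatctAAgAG

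The promoter windows are the 250 bases before the annotated start, from RefSeq on GRCm38.p6, and 6 of the 10 members had an entry (P4ha1, P4ha2, P4ha3, Plod1, Plod3 and Serpinh1). The windows were searched on both strands for ACGTG, a form of the core bound by hypoxia-inducible factors and also part of the E-box CACGTG. The other form of that core, GCGTG, was not searched for. P4ha1, P4ha2, Plod3 and Serpinh1 held ACGTG once each, 4 of the 6 entries, and 16.6% of all 32851 promoter windows of the same length held it. The 4 members with a match include P4ha1 and Plod3, which did not pass the test, and Plod1, which rose, had no ACGTG. The windows of P4ha2 (chr11:54100674-54100923, plus strand) and Serpinh1 (chr7:99353240-99353489, minus strand) are printed with the match in capitals, which begins 78 and 171 bases before the start. The RefSeq start of P4ha2 lies downstream of the start of its GENCODE locus, so this window is inside the GENCODE gene.
P4ha2 promoter: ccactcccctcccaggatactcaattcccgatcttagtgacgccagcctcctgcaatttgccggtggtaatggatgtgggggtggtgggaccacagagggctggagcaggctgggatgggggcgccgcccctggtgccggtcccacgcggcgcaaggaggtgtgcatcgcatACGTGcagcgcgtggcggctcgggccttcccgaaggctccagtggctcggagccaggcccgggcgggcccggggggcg
Serpinh1 promoter: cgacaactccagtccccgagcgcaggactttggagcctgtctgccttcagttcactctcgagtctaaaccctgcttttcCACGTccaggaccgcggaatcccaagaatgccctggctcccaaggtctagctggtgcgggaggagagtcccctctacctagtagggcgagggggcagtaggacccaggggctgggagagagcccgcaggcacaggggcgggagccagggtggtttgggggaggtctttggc

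Among the tested members, the lysyl oxidases Lox and Loxl2 had the largest log2 fold-changes. Lox, the founding lysyl oxidase (chr18:52516067-52529867 of GRCm38, minus strand), had 2.95, 3.60 and 4.06 CPM in the CD24- libraries and 35.4, 56.6 and 47.1 CPM in the CD24+ libraries (values are in the order of replicates 1, 2 and 3 throughout). Every CD24+ library was far above every CD24- library. The means were 3.53 ± 0.559 and 46.4 ± 10.6 CPM (n = 3 in each group, ± SD). The log2 fold-change was 3.73 (SE 0.21, 95% interval 3.27 to 4.19, edgeR adjusted p = 3.96e-07). The estimate that follows the authors' own steps, median coverage with 10 added to each value, gave 0.66 and remained called, from a Lox median of 0 in each CD24- library and of 3, 11 and 10 in the CD24+ libraries.

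Loxl2, which oxidizes collagen IV as well as fibrillar collagens (chr14:69609068-69695834, plus strand), had 9.47, 6.06 and 3.04 CPM in the CD24- libraries and 54.9, 28.3 and 47.8 CPM in the CD24+ libraries. The groups did not overlap, although both varied, and CD24- replicate 3 was the lowest library. Its log2 fold-change was 2.79 (SE 0.33, 95% interval 2.05 to 3.53, adjusted p = 7.8e-05), and median coverage gave 0.69. Loxl2 is among the genes the study itself displayed from these libraries, so its place here is not independent evidence of direction. Most of its annotated reads lie where another gene model overlaps it: 1359 of the 1765 that match its transcripts also match a transcript of another gene, and the antisense model Gm27177 is one that overlaps, which these unstranded counts cannot tell from Loxl2. The other 406 reads numbered 16, 11 and 4 in the CD24- libraries and 66, 116 and 193 in the CD24+ libraries, an 8.51-fold difference of mean CPM.

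Loxl1, known for its part in elastic fibers (chr9:58287738-58313186, minus strand), had 0, 0 and 2 reads in the CD24- libraries and 6, 12 and 13 in the CD24+ libraries. The pooled rate was 10.4 times as high in CD24+ cells, with an exact 95% interval of 2.64 to 89.6 that covers counting error only. A CD24- count of 0 allows up to 3 reads in that library. DESeq2, which tested Loxl1, gave a log2 fold-change of 3.40 (adjusted p = 0.0263). The mean count on which DESeq2 filters came mostly from the CD24+ libraries, the group in which Loxl1 is high.

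Serpinh1, the chaperone of the triple helix (chr7:99345376-99353239, minus strand), had the most reads of the members. It had 180, 206 and 192 CPM in the CD24- libraries and 776, 527 and 656 CPM in the CD24+ libraries. The lowest CD24+ library was far above the highest CD24- library. The means were 193 ± 12.7 and 653 ± 125 CPM, a log2 fold-change of 1.76 (SE 0.13, 95% interval 1.47 to 2.05, adjusted p = 2.93e-06). When each distinct sequence was counted once, the value was 0.77 and remained called. Serpinh1 had 3.95 reads per distinct sequence, the highest of the members.

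The prolyl 4-hydroxylase alpha genes differed among themselves. P4ha2 (chr11:54100095-54131665, plus strand) had 9.26, 8.15 and 10.25 CPM in the CD24- libraries and 39.8, 23.6 and 29.9 CPM in the CD24+ libraries. The groups were well apart, and the log2 fold-change was 1.73 (SE 0.19, 95% interval 1.30 to 2.16, adjusted p = 4.99e-05), with 0.43 by median coverage. P4ha1, the main alpha subunit of most cells (chr10:59323296-59373304, plus strand), had 131, 132 and 107.5 CPM in the CD24- libraries and 164, 113 and 132 CPM in the CD24+ libraries. These overlapped, with a log2 fold-change of 0.13 (95% interval -0.16 to 0.43, adjusted p = 0.432). P4ha3 (chr7:100285520-100319699, plus strand) had 2, 4 and 5 reads in the CD24- libraries and 6, 40 and 26 in the CD24+ libraries, a pooled rate 4.39 times as high (exact 95% interval 2.31 to 9.18, counting error only). DESeq2 gave P4ha3 a log2 fold-change of 2.02 (adjusted p = 0.0151). Its mean count, on which DESeq2 filters, also came mostly from the CD24+ libraries.

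The lysyl hydroxylase genes differed less. Plod1, which hydroxylates lysines within the helix (chr4:147909753-147936767, minus strand), had 98.3, 109 and 97.5 CPM in the CD24- libraries and 172, 133 and 148 CPM in the CD24+ libraries. Plod2 (chr9:92542223-92608428, plus strand) had 79.9, 77.3 and 61.5 CPM in the CD24- libraries and 108, 103 and 107 CPM in the CD24+ libraries. Neither gene overlapped between groups, and their log2 fold-changes were 0.57 (SE 0.10, adjusted p = 0.00133) for Plod1 and 0.54 (SE 0.10, adjusted p = 0.00176) for Plod2. By median coverage they were 0.39 and 0.31, both still called. Plod3, which also adds sugars to hydroxylysine (chr5:136987019-136996648, plus strand), had 88.9, 90.1 and 90.4 CPM in the CD24- libraries and 100.7, 83.7 and 86.1 CPM in the CD24+ libraries. Its groups overlapped at nearly the same mean, 89.8 ± 0.789 and 90.2 ± 9.19 CPM, and the 95% interval of its log2 fold-change was -0.20 to 0.20. Plod3 shares sequence with Znhit1 on the other strand and holds Mir702.

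**Figure D2:**
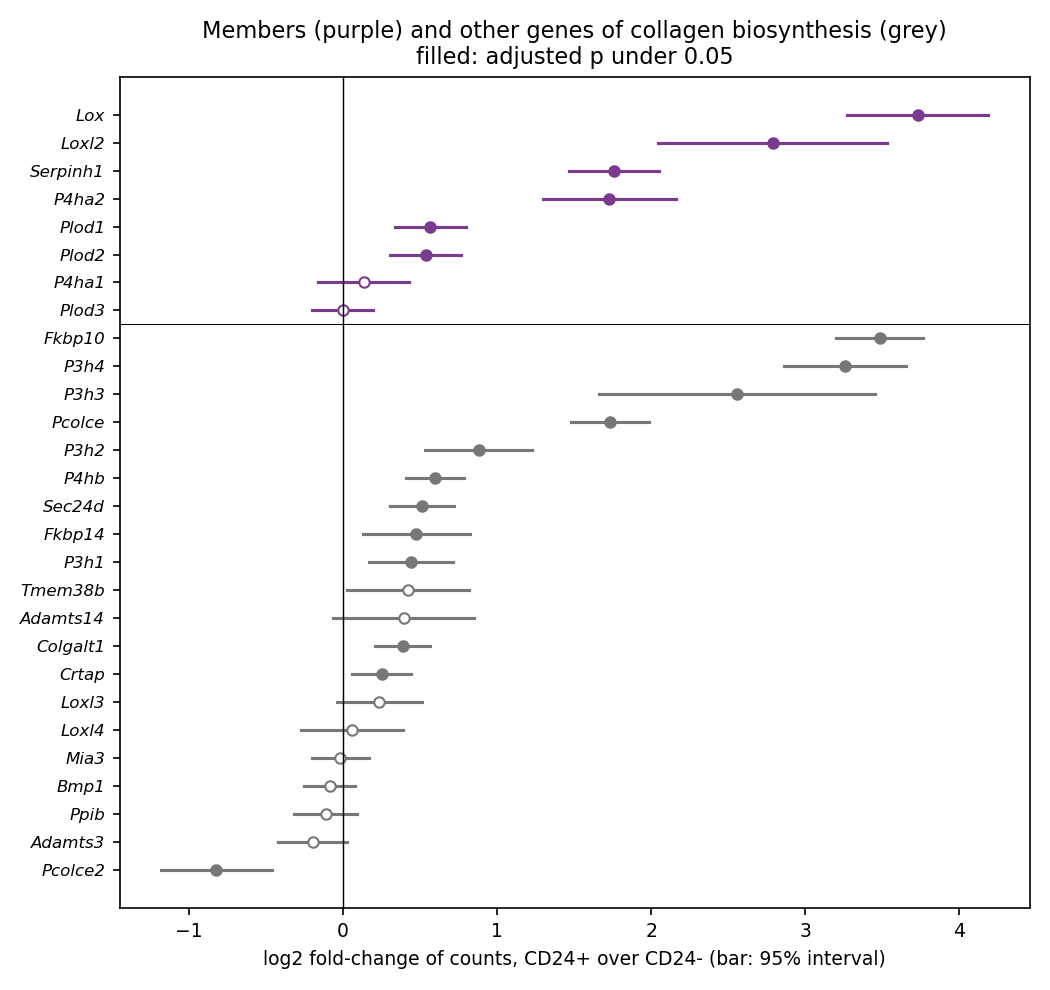
Log2 fold-change of counts, CD24+ over CD24-, with its 95% interval for the 8 tested members (purple) and the 20 tested genes of the list of other collagen biosynthesis genes (grey). Filled points passed an adjusted p of 0.05. Lox at 3.73 and Fkbp10 at 3.48 are the highest of each list, and Pcolce2 at -0.82 is the one called gene left of 0.

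The members held different ranks when read density was set against transcript length, as reads per 1000 start positions within single exons and per 1000000 gene reads. In CD24- cells the density of Serpinh1 was 85.8 ± 6.02. Next came Plod1 at 36.1 ± 2.08, Plod3 at 34.8 ± 0.857 and P4ha1 at 34.15 ± 3.75, which did not differ from each other beyond their spread, and then Plod2 at 23.2 ± 3.23. P4ha2 followed at 4.49 ± 0.684, and Loxl2 (0.926 ± 0.501), Lox (0.763 ± 0.141), P4ha3 (0.161 ± 0.0823) and Loxl1 (0.0253 ± 0.0437) were lower still, Loxl2 and Lox within each other's spread. In CD24+ cells Serpinh1 was at 293 ± 56.7 and Plod1 at 54.2 ± 7.03. P4ha1 (38.1 ± 7.51), Plod3 (36.0 ± 3.94) and Plod2 (35.3 ± 1.23) did not differ beyond their spread, and P4ha2 stood at 17.0 ± 4.2. Lox (10.3 ± 2.32) and Loxl2 (8.47 ± 2.68) were again within each other's spread, above P4ha3 (0.739 ± 0.325) and Loxl1 (0.227 ± 0.0788). The density of Serpinh1 made up 38.9% of the sum over the 10 members in CD24- cells and 59.4% in CD24+ cells. Only reads that carry a member's annotation were counted, over all its start positions. This leaves out 1379 reads of Loxl2 transcripts and 438 of Lox transcripts filed elsewhere, so the densities of these genes can be too low, to unequal degrees. That of Loxl2 can also be too high, since 1359 of its 1765 annotated reads in transcripts also match a transcript of another gene.

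Shares among the members of one family do not depend on the scaling of a library. P4ha2 took 10.1, 10.1 and 14.9% of the summed density of the 3 prolyl 4-hydroxylase alpha genes in the CD24- libraries and 31.4, 28.6 and 30.8% in the CD24+ libraries. The groups were clearly apart, and the share of P4ha1 went from 87.8 ± 3.04% to 68.3 ± 0.627%. Plod3 took 37.0 ± 2.2% of the lysyl hydroxylase density in CD24- and 28.7 ± 0.693% in CD24+ cells, also with no overlap. The share of Lox among the 3 lysyl oxidase members was 46.7 ± 17.4% in CD24- and 54.5 ± 13.6% in CD24+ cells and overlapped. This sum leaves out Loxl3 and Loxl4, which are not members and had more reads than Lox and Loxl2 in both groups. It also leaves out the Lox and Loxl2 reads filed outside their annotations, and it counts Loxl2 reads that also match another gene.

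Ratios of reads between a pair of genes in the same library restated the same counts on the log2 scale. The log2 ratio of P4ha2 to P4ha1 was -3.74 ± 0.32 in CD24- and -2.15 ± 0.11 in CD24+ cells, a difference of 1.59. That of Plod1 to Plod3 differed by 0.57 and that of Plod2 to Plod3 by 0.55. These 3 ratios did not overlap between groups and had the smallest exact two-sided permutation p that 3 against 3 libraries allow, 0.1, or 0.167 adjusted over the 5 pairs compared. Each of the 3 sets a member called higher against a member that did not pass the test. Of all single genes tested, 29.7% were above and 27.6% below in every CD24+ library. The share over pairs of genes was not computed. The ratio of Plod2 to Plod1 differed by -0.02 (exact p = 0.9), and that of Lox to Loxl2 by 0.79 with overlap (exact p = 0.4).

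**Figure D3:**
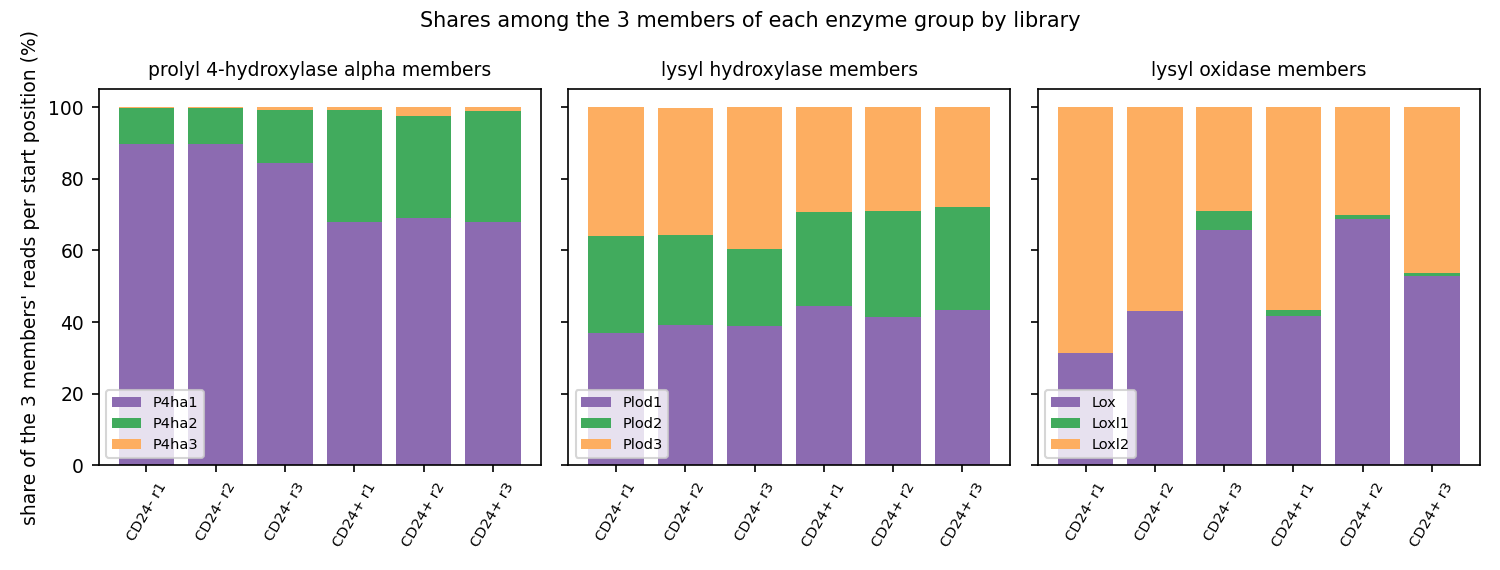
Share (%) of each gene in the summed reads per start position of 3 members, 1 bar per library, for the prolyl 4-hydroxylase alpha genes, the lysyl hydroxylases, and the lysyl oxidases Lox, Loxl1 and Loxl2 without Loxl3 and Loxl4. P4ha2 grows from 11.7% to 30.3% on average, Plod3 shrinks from 37.0% to 28.7%, and the lysyl oxidase panel varies as much within a group as between groups.

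Replicate 1 was the highest of the 3 CD24+ libraries for 8 of the 10 members, and replicate 2 was the lowest for the same 8. Among all tested genes, 38.7% had replicate 1 highest, 35.4% had replicate 2 lowest and 23.4% had both. Some of the members' orders rest on small gaps, as for Plod2 (108 against 107 CPM) and Loxl1 (12 and 13 reads), and were not tested. For the other members, Lox and P4ha3, the order was the opposite, with replicate 2 highest and replicate 1 lowest. Replicate 1 was also the shallowest library, with 6491832 gene reads against 17765080 and 19100843 in replicates 2 and 3, and the part of depth in this order was not tested.

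Reads inside the alternative exons were counted against reads in the coding exons that all complete coding transcripts share, both per start position of a 47-nt read. For the 63-nt exon of Plod2 this ratio was 0.583, 0.645 and 0.798 in the CD24- libraries and 1.04, 1.30 and 1.55 in the CD24+ libraries. Every CD24+ library was above every CD24- library. The exon held 3, 4 and 3 reads in the CD24- libraries and 5, 17 and 23 in the CD24+ libraries, 0.955% of its reads and those of the shared exons in CD24- cells (10 of 1047, exact 95% interval 0.459 to 1.75%) and 1.96% in CD24+ cells (45 of 2292, exact 95% interval 1.44 to 2.62%). With 10 CD24- reads, under the minimum of 20, no test was made, and the intervals cover counting error only. The exon has 17 start positions, against 1167 in the shared exons. A ratio over 1 cannot be the share of transcripts that hold the exon, so the ratio is a relative read density only.

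The exons of P4ha1 showed no such separation. The first exon of the 71-nt pair took 8 of 19, 5 of 21 and 10 of 14 of the pair's reads in the CD24- libraries and 9 of 13, 19 of 31 and 19 of 40 in the CD24+ libraries. This was 45.8 ± 24% and 59.3 ± 11%, with overlap (exact permutation p = 0.5). The ratio to shared exons differed between groups by 0.105 for the first exon (exact p = 0.6), -0.168 for the second (exact p = 0.4) and 0.0197 for a 240-nt exon at chr10:59348181-59348420 (exact p = 0.9), which 2 of 3 transcripts hold. In P4ha2, the 60-nt exon had 0 reads in CD24- and 8 in CD24+ cells and its 66-nt partner 3 and 2, too few to compare.

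**Figure D4:**
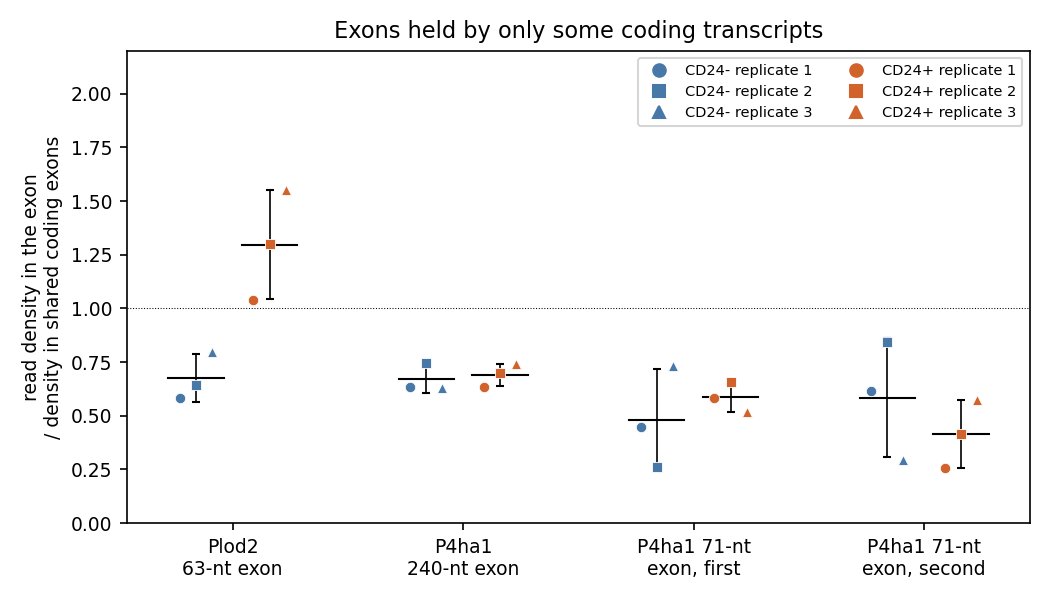
Read density in an exon held by only some coding transcripts, divided by the density in the coding exons all of them share, for each library, with a line at the mean of 3 libraries and a bar of 1 SD. The Plod2 exon lies between 0.583 and 0.798 in CD24- and between 1.04 and 1.55 in CD24+ libraries, and the 3 exons of P4ha1 overlap between groups.

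A further set of reads matched transcripts of a member by sequence, and of no other gene, but had been filed under a repeat or under no annotation, so the sums above leave them out. For Lox, unannotated reads numbered 6, 3 and 10 in the CD24- libraries and 55, 196 and 168 in the CD24+ libraries, or 0.681 ± 0.423 and 9.51 ± 1.35 CPM, a 14.0-fold difference. Loxl2 had 4, 9 and 1 unannotated reads in the CD24- libraries and 50, 104 and 169 in the CD24+ libraries, a 16.3-fold difference of mean CPM. Loxl2 reads filed under repeats, mainly MTEb elements, numbered 31, 29 and 15 in the CD24- libraries and 158, 300 and 509 in the CD24+ libraries. These reads come from the same libraries and transcripts as the annotated ones, so they show the direction in other parts of the transcript and not in other samples. The groups did not overlap in any of the 3 sets (exact permutation p = 0.1, the smallest possible).

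Over all members, 10 sets held at least 30 such reads, and 6 were above in every CD24+ library, 3 overlapped (P4ha1 under repeats, and unannotated Plod1 and Serpinh1 reads) and 1 was below in every CD24+ library (Plod3 under repeats). Over 5993 such sets of all annotated genes, 23.3% were above and 18.9% below. Plod2 reads filed under the MIRb repeat were 44, 32 and 24 in the CD24- libraries and 50, 97 and 103 in the CD24+ libraries, 3.45 ± 1.03 and 6.25 ± 1.40 CPM. P4ha3, with few annotated reads, had 0, 1 and 0 unannotated reads in the CD24- libraries and 4, 19 and 11 in the CD24+ libraries. When reads were assigned by sequence to 1 gene of GENCODE, P4ha3 passed the filter, with a log2 fold-change of 2.82 (SE 0.45, edgeR adjusted p = 0.000565), and Loxl2 had 3.07 (SE 0.24, adjusted p = 4.22e-06). P4ha3 then had 2, 3 and 4 reads in the CD24- libraries and 10, 55 and 36 in the CD24+ libraries. It passed only through the CD24+ libraries, so this test depends on the group in which it is high.

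**Figure D5:**
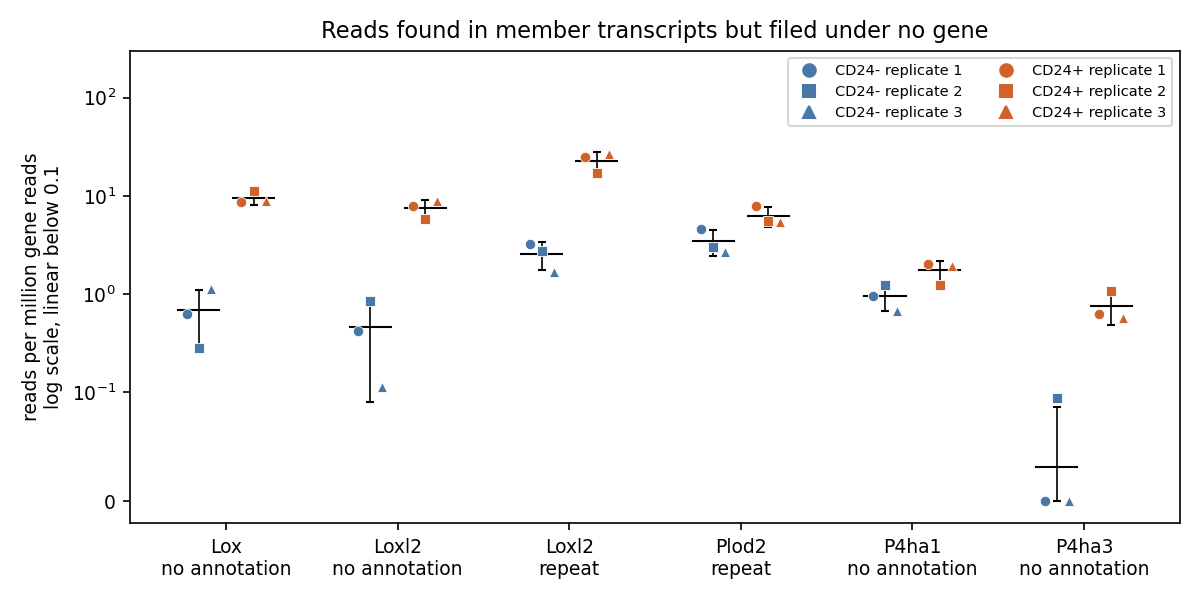
Reads per 1000000 gene reads (log scale, linear below 0.1) that match transcripts of a member but were filed under no annotation or under a repeat, for each library, with a line at the mean of 3 libraries and a bar of 1 SD. The 6 sets drawn were chosen because every CD24+ symbol lies above every CD24- symbol, from 8.65 to 11.1 against 0.284 to 1.13 for Lox, and the other 4 sets of at least 30 reads are not drawn.

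Other genes of collagen biosynthesis were examined as a list of 25, of which 20 were tested. Of these 11 were higher in CD24+ cells, 1 was lower and 8 did not pass the test, and their median log2 fold-change was 0.41. Over all tested genes, 23.8% were higher and 22.3% lower. Among partners of the members, P4hb, the beta subunit of prolyl 4-hydroxylase, rose by 0.60 on the log2 scale (SE 0.08, adjusted p = 0.000243), a call lost when each distinct sequence was counted once. Among the 20 tested genes Fkbp10 rose most, by 3.48 (SE 0.13, adjusted p = 3.18e-08). It encodes FKBP65, a prolyl isomerase known to be needed for telopeptide lysine hydroxylation by Plod2. P3h4, a partner of Plod1 and P3h3 in a lysyl hydroxylase complex, rose by 3.26 (SE 0.18, adjusted p = 3.82e-07), and P3h3 by 2.56 (SE 0.40, adjusted p = 0.000507), which was not called by median coverage. P3h3 had 2, 11 and 5 reads in the CD24- libraries and 17, 68 and 80 in the CD24+ libraries. It passed the low-count filter only through the CD24+ libraries. The cyclophilin Ppib, also of that lysyl hydroxylase complex, had a log2 fold-change of -0.11 and did not pass the test.

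Fkbp10 reads were 6.63, 5.69 and 5.41 CPM in the CD24- libraries and 73.8, 63.7 and 62.0 CPM in the CD24+ libraries. P3h4 had 2.10, 3.41 and 3.38 CPM in the CD24- libraries and 31.3, 28.45 and 26.3 CPM in the CD24+ libraries. Both were far apart between groups. Of the prolyl 3-hydroxylase complex, P3h1 rose by 0.44 (adjusted p = 0.0132) and Crtap by 0.25 (adjusted p = 0.035). The call of P3h1 was lost without CD24- replicate 1 or CD24+ replicate 3, and that of Crtap in 10 of the 15 alternatives that changed the fit, DESeq2 among them. Pcolce, an enhancer of procollagen C-proteinase, rose by 1.73 (SE 0.11, adjusted p = 1.2e-06), and Pcolce2, a second enhancer, fell by 0.82 (SE 0.16, adjusted p = 0.00211) and was the one called gene that was lower, a call lost by median coverage. The proteinase itself, Bmp1, had a log2 fold-change of -0.08 and did not pass. The remaining lysyl oxidase genes, Loxl3 (0.24, adjusted p = 0.144) and Loxl4 (0.06, adjusted p = 0.76), did not pass either.

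Of 5 cofactor supply genes, 2 rose and 3 did not pass, at a median log2 fold-change of 0.29. Among all tested genes 23.8% were higher, and the median absolute log2 fold-change was also 0.29. Whether these 5 genes differ from all genes was not tested. Slc23a2, an ascorbate transporter, rose by 0.39 (adjusted p = 0.00243) and Slc31a1, the copper importer, by 0.48 (adjusted p = 0.000486). Atp7a, which loads copper into secreted enzymes such as Lox, had a log2 fold-change of -0.18 (adjusted p = 0.178). Of the substrates, 7 of 8 fibrillar collagen chain genes were tested, 5 were higher and 2 lower, at a median of 1.43. Shares over all tested genes were 23.8% higher and 22.3% lower. Col1a1 and Col1a2, among the 5, had 174 and 80 reads in all. Both passed the low-count filter only through the CD24+ libraries, and the median is the value of Col1a2. Col5a2 rose by 4.04 (SE 0.14, adjusted p = 2.03e-08) and Col3a1 by 3.69 (SE 0.39, adjusted p = 3.08e-05), whereas Col5a3 fell by 1.39 (SE 0.23, adjusted p = 0.000784) and Col11a2 by 1.37 (SE 0.29, adjusted p = 0.00304). Col3a1 was at 14.2, 14.7 and 3.49 CPM in the CD24- libraries, so that replicate 3 was lowest, as it was for Loxl2. Elastin reads numbered 4 by sequence over all libraries.

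The genes whose log2 CPM followed Lox most closely over the 6 libraries, among 7691 compared, were Irx2 (Pearson r = 0.9996), Fat4 (0.9988) and Uaca (0.9984). Of the genes compared, 516 had an r over 0.95. All 6 libraries share the difference between groups, which by itself gives a high r, and the log2 fold-changes of these genes were 0.76, 3.97 and 0.55. Fat4 is a large cadherin, and its 50.8, 71.3 and 71.4 CPM in the CD24+ libraries have replicate 1 lowest, as for Lox.

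Cd24a, the gene of the sorted marker, was at 6.99 to 12.1 CPM in CD24- and 72.5 to 85.5 CPM in CD24+ libraries. The labels call the cells mammary epithelial cancer cells, and of 4 epithelial markers Krt8 and Krt18 were abundant, whereas Epcam and Cdh1 had 6 and 2 reads in all. The summed epithelial markers ranged from 1830 to 2030 CPM in CD24- and from 756 to 899 CPM in CD24+ libraries. Markers of fibroblasts, which express many of the members, summed to 6.54 to 12.7 CPM in CD24- and 29.4 to 31.9 CPM in CD24+ libraries. Of the 6, 4 were detected, and Lum and Thy1 had 0 reads. All 4 were called higher, among them Dcn and Pdpn, where 23.8% of all tested genes were, but Pdgfra overlapped between groups. Dcn had 1, 1 and 0 reads in the CD24- libraries and 13, 18 and 59 in the CD24+ libraries. Dcn and Col1a1 passed the low-count filter only through the CD24+ libraries. Col1a1 is on this list and also among the substrate chains. Endothelial markers summed to at most 3.98 CPM in any library, and Cdh5, one of them, fell by 3.23 on the log2 scale (adjusted p = 0.000278). Leukocyte markers summed to 46.7 to 80.5 and 7.17 to 9.44 CPM, mostly Cd68, with Ptprc at 2 reads and Cd3e at 0. Itgam had 36, 47 and 29 reads in the CD24- libraries and 0, 0 and 1 in the CD24+ libraries (adjusted p = 3.58e-06). Itgam and Cdh5 passed the low-count filter only through the CD24- libraries, the group in which they are high. The part of these marker differences in the members' values was not tested, and in bulk RNA more cells of a kind and more RNA per cell cannot be told apart.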

How the data were processed

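Messenger RNA of sorted Mvt1 cells was sequenced (3 libraries per group, grouped by the labels). The authors trimmed reads to 47 nt, collapsed identical ones, mapped them by exact match to the genome (mm9 per the submitters' processing notes) and deposited a raw count for each sequence with 1 location and 1 annotation, not normalized. Annotations include introns and carry no strand. Gene reads were 6491832 to 19100843 per library. Counts were summed per symbol and tested with edgeR 4.0.16 (TMM, filterByExpr, quasi-likelihood F test, Benjamini-Hochberg over all tested genes, threshold 0.05) in R 4.3.3, and CPM are per 1000000 TMM-scaled gene reads. On simulated counts of this comparison with 200 of 11087 tested genes changed, all 200 were recovered and 0.138% of the others called. The changed genes were drawn above a minimum level and given changes of the same large size, and all genes shared a fixed dispersion. These rates therefore do not describe the error in the real libraries. Recovery of differences as small as those of Plod1 and Plod2 was not tested, nor recovery with as many genes changed as were called here. Intervals of shares are Clopper-Pearson, and exact tests used scipy 1.17.1. Reads were also matched by sequence to GENCODE M21 transcripts, and those counted as outside an annotation lay on the member's chromosome within 10 kb of its annotated reads (for the share over all genes, on the gene's chromosome). Gene coordinates are GENCODE's (GRCm38) and were not mixed with mm9.

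Members and lists were chosen with earlier results of these data known. Ratios between paralogues, reads outside annotations, the order of libraries and promoters were added after the data were seen. Other lists give the largest and smallest called change and genes named by role, and the 3 genes most like Lox are those of highest correlation with a mean of at least 20 CPM. Alternatives were DESeq2 1.42.0, RLE and unscaled totals, other filters, each distinct sequence once, thinning, reads of 1 GENCODE gene, median coverage with quantile normalization (limma 3.58.1), a replicate block and leaving out each library. Libraries of a group differed beyond sampling noise (chi-square per degree of freedom at least 1.71).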

Additional observations from a re-analysis of the deposited data

Results flagged for a closer look

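Reads found in member transcripts but filed outside any gene form data that the summed counts do not use, and 6 of 10 sets of at least 30 reads were higher in every CD24+ library than in every CD24- library, an order that 23.3% of 5993 such sets over all annotated genes showed. The mean CD24+ level was 22.8 CPM for Loxl2 reads under repeats, 9.51 CPM for unannotated Lox reads and 7.53 CPM for unannotated Loxl2 reads. It was 6.25 CPM for Plod2 reads under a repeat, 1.74 CPM for unannotated P4ha1 reads and 0.759 CPM for unannotated P4ha3 reads. The CD24- means were 2.57, 0.681, 0.462, 3.45, 0.951 and 0.0316 CPM in the same order. P4ha1 was above in every CD24+ library in its 100 unannotated reads, but its 60 reads under repeats (exact permutation p = 0.5), both sets together (exact p = 0.2) and its 9143 annotated reads overlapped. Plod3 reads under repeats went the other way, with 21 reads in CD24- and 14 in CD24+ cells. The other sets, 38 unannotated Plod1 reads (exact p = 0.4) and 34 unannotated Serpinh1 reads (exact p = 0.3), overlapped. The exact permutation p of each set without overlap was 0.1, the smallest possible with 3 against 3 libraries.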

How the results depend on the processing

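The 6 calls among the members held in each of the 15 alternatives that changed the fit (a minimum of 1 CPM in 3 libraries kept the same genes and values), and the count higher ranged from 6 to 8, since P4ha3 was added in both DESeq2 and the fit without a filter (8, with Loxl1), in the reads of one GENCODE gene (7) and in 4 of the 6 fits that left out a library. P4ha3 had 2, 4 and 5 annotated reads in the CD24- libraries. In the edgeR fits with a filter it passed only through the CD24+ libraries. Of 120 values of single members, 112 kept direction and side of the threshold. The others were those of genes that did not pass in any: Plod3 was 0.01 without a filter, 0.01 with reads of one gene, 0.00 with median coverage and -0.09 to 0.04 with a library left out, and P4ha1 ranged from -0.02 (without CD24+ replicate 1) to 0.25. The other collagen biosynthesis genes called higher, 11 in the report, were 8 with each distinct sequence counted once (P4hb, Crtap and Colgalt1 lost), 9 with median coverage (P3h3 and Fkbp14 lost) and 8 to 12 with a library left out, 8 being without CD24+ replicate 3. With each distinct sequence counted once, 1550 genes were lower in place of 2478, and 2147 higher. With median coverage, 1742 genes were higher and 0 of the other collagen biosynthesis genes were lower, against 1 (Pcolce2), and with a library left out this count was 1 to 2, the second being Ppib at -0.21 without CD24+ replicate 1. The ratio to shared exons differed between groups by -0.00447 to 0.0573 for the 240-nt exon of P4ha1 and by -0.00367 to 0.23 for its first 71-nt exon with a library left out. For its second, -0.168 became -0.00992 with each distinct sequence counted once and -0.0389 (without CD24- replicate 2) to -0.314 (without CD24- replicate 3) with a library left out. Replicate numbers did not pair the libraries (correlations of same-numbered deviations 0.0143, -0.2511 and -0.3095), and the replicate block left 6 members higher, with 3.71 for Lox. P4ha3, Loxl1 and the alternative exons rest on few reads. The cause of these changes was not tested.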
